A study of Arabidopsis thaliana with 6 samples.

Results

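The XTH genes of Arabidopsis thaliana encode xyloglucan endotransglucosylase/hydrolases, enzymes that cut and rejoin xyloglucan in the plant cell wall. All 33 of them, XTH1 to XTH33, were taken by locus name from the 29670 loci measured, and all 33 had a value on every array. Members were chosen by gene name, but the family itself was selected on the measured difference between the genotypes at XTH4 (AT2G06850). Its differences between the genotypes are therefore given as a description and support nothing.

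RNA was compared between the accession Col and the line epiRIL12, with 3 arrays each, from plants 14 days old that had 16 hours of light a day and no treatment. An epigenetic recombinant inbred line comes from crossing a methylation mutant to its wild type and inherits chromosome segments of both. The labels name neither the mutant nor the segments of this line, and 1 such line stands for the genotype here. They call the material both whole seedling RNA and rosette leaves, and say nothing of separate plantings, so errors measure the spread between these samples, which may be technical.

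Xyloglucan is the main hemicellulose of the primary wall in this species; it coats cellulose and ties its fibrils together. An XTH enzyme cuts a xyloglucan chain and either joins the cut end to another chain, which remodels the wall of a growing cell without dissolving it, or passes it to water, which shortens the chain. Group numbers follow sequence similarity: group I holds XTH1 to XTH11, group II XTH12 to XTH26 and group III XTH27 to XTH33. Hydrolase activity is known from XTH31 of group III, and most members studied act as transferases.

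Expression values were on a log2 scale, so a difference of 1 is a 2-fold change of the array value. Array medians lay between 6.80 and 6.84, and lower quartiles between 4.71 and 4.90. Arrays numbered 3 had a slightly wider spread over loci (SD 2.37 and 2.40) than the others (2.32). All 6 leaf markers lay above the array median on all 6 arrays, RBCS1A at 15.4 ± 0.06 (SD, n = 3) in Col among them. Of 10 root markers 1, ESB1, did so, while the root genes RHD6 and MYB36 lay below the lower quartile on all 6 arrays. None of 4 flower and seed markers lay above the median on all arrays. No marker of the 3 lists was called between genotypes at a limma adjusted p under 0.05, and 0 of these 20 had an unadjusted p under 0.05.

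XTH4 was the one member called, and it fell in epiRIL12. It encodes one of the enzymes through which the family was first described, under the name endoxyloglucan transferase EXGT-A1, and it also acts in the walls of wood cells. Its 3 Col arrays read 11.61, 11.64 and 11.36, and its 3 epiRIL12 arrays 10.76, 10.72 and 10.48. The genotypes did not overlap: the lowest Col array stood 0.60 above the highest epiRIL12 array, while the arrays of one genotype spanned 0.29 in Col and 0.28 in epiRIL12. The means were 11.54 ± 0.16 (SD, n = 3) and 10.65 ± 0.15, a 1.85-fold lower value in epiRIL12 (log2 -0.89, SE 0.13, limma adjusted p = 0.0297 over 29670 loci). Fewer cells that express the gene and less of its RNA per cell cannot be told apart in such samples. Over all loci, 0.0843% were called as falling and 0.89% as rising, and 1 of the 33 members fell and 0 rose. Of protein-coding loci, the class of all 33 members, 0.0715% fell and 0.107% rose. Nothing is read from these counts, since the family was picked with them known.

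The call of XTH4 was lost with any of 5 single arrays left out. It was kept without Col replicate 3 (adjusted p = 0.0480), but the adjusted p was 0.136 without Col replicate 1, 0.128 without Col replicate 2, 0.0870 without epiRIL12 replicate 1, 0.105 without epiRIL12 replicate 2 and 0.112 without epiRIL12 replicate 3. The difference itself stayed between -0.98 and -0.80 in these 6 fits. In the authors' deposited table the log2 difference of XTH4 is -0.88 with a p-value of 0.00283, which gave 0.240 after adjustment over all loci.

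**Figure D1:**
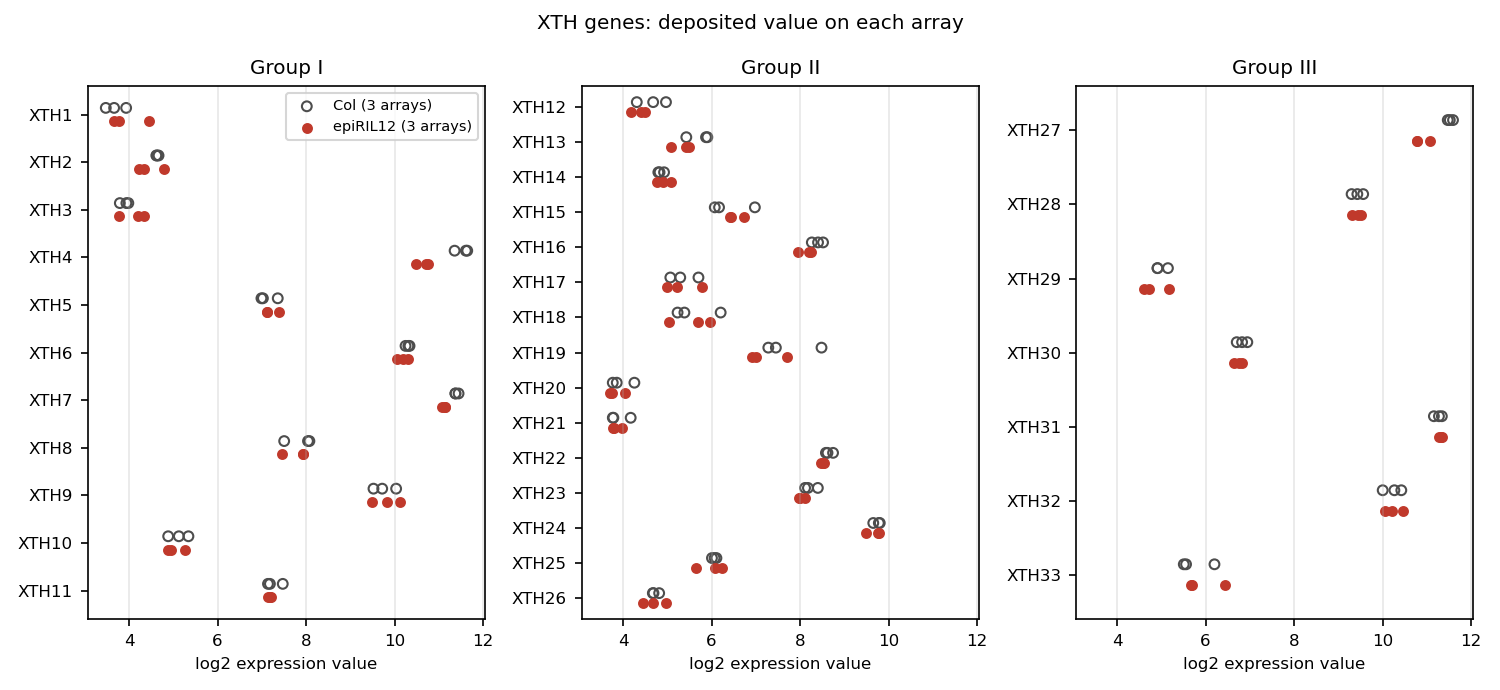
Log2 expression value (horizontal axis) of each XTH gene on each array, by sequence group, with 3 Col arrays as open circles and 3 epiRIL12 arrays as filled red circles. XTH4 and XTH27 show clear gaps between the genotypes, whereas at most other genes the circles of both colours mix. Values of different genes come from different probes and are not comparable.

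XTH27 (AT2G01850) had the next largest difference but was not called. It encodes EXGT-A3, an enzyme known to act in the water-conducting cells of leaf veins. Col arrays read 11.59, 11.52 and 11.47, and epiRIL12 arrays 10.78, 11.06 and 10.78. All epiRIL12 arrays lay below all Col arrays, with a gap of 0.41. The means were 11.53 ± 0.06 (SD, n = 3) and 10.88 ± 0.16, 1.57-fold apart (log2 -0.65, SE 0.11, limma adjusted p = 0.0686). With the lowest 25% of loci by mean signal left out the adjusted p was 0.0419, and with a trended robust eBayes 0.0100, so the call depended on the setting. In the authors' deposited table the difference of XTH27 is -0.62 with a p-value of 0.00415, which gave 0.288 after adjustment over all loci.

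**Figure D2:**
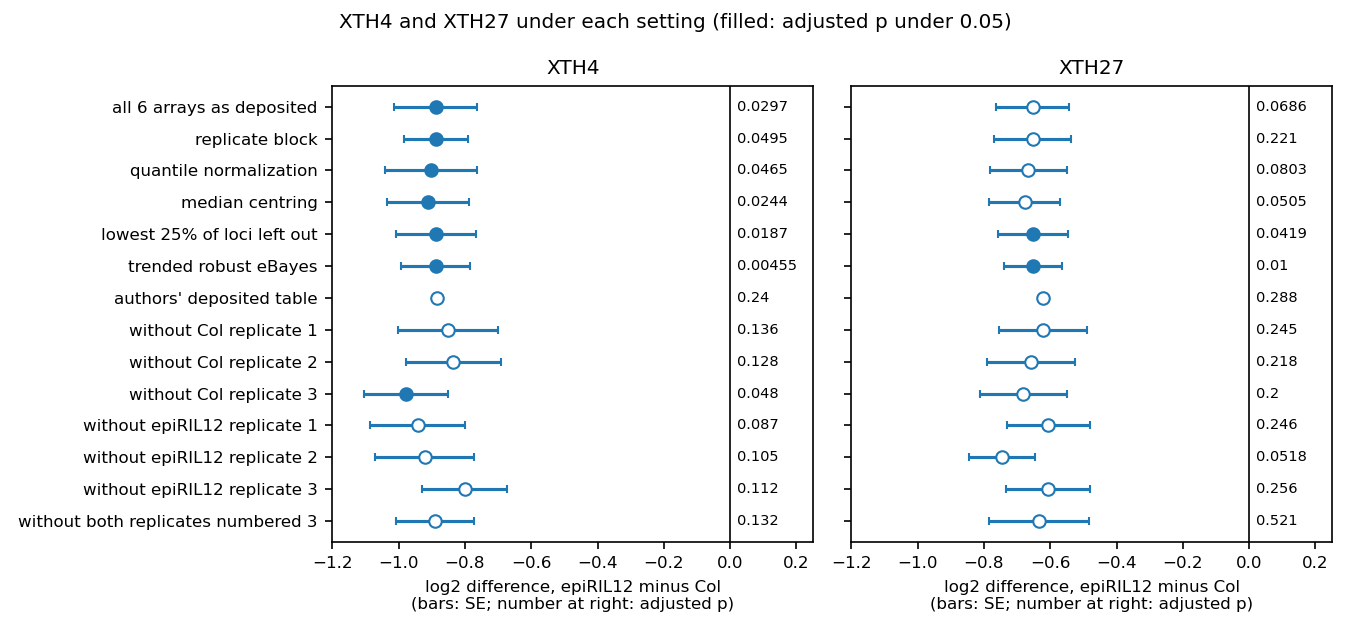
Log2 difference, epiRIL12 minus Col, of XTH4 (left) and XTH27 (right) under each setting, with SE bars where a fit gave one and the adjusted p printed at the right of each row. Both genes stay left of 0 throughout; filled circles mark an adjusted p under 0.05, 7 settings for XTH4 and 2 for XTH27.

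Among the other members, 3 had epiRIL12 arrays that all lay below the Col arrays, by smaller amounts and without a call. XTH7 (AT4G37800) read 11.38, 11.45 and 11.38 in Col and 11.15, 11.15 and 11.08 in epiRIL12, a difference of -0.27 (SE 0.08, limma adjusted p = 0.469). Its gap of 0.23 between the genotypes exceeded the span of 0.07 within each. XTH16 (AT3G23730), one of the XTH genes known to respond to shade, read 8.41, 8.52 and 8.27 in Col and 8.24, 7.96 and 8.19 in epiRIL12 (difference -0.27, SE 0.12). Its gap was 0.03, against spans of 0.25 and 0.28 within the genotypes. XTH22 (AT5G57560), also called TCH4, is a classic gene switched on by touch, brassinosteroid and auxin. Its arrays read 8.58, 8.62 and 8.75 in Col and 8.54, 8.52 and 8.48 in epiRIL12, a difference of -0.14 (SE 0.09) with a gap of 0.05. Over the 13 alternatives this difference ran from -0.17 (without Col replicate 1) to -0.06 (the authors' deposited table). It was -0.09 without Col replicate 3 and -0.07 without both arrays numbered 3. In all, 5 of 33 members lay lower in epiRIL12 without overlap and 0 lay higher, where 6.89% of all loci lay lower and 5.19% higher by the same rule. XTH4, XTH7 and XTH27 were the 3 members with an unadjusted p under 0.05, all lower, against 3.72% of all loci lower and 3.32% higher. The same 3 genes have a p-value under 0.05 in the authors' deposited table, as do 3.4% of all loci in the lower and 3.14% in the higher direction. The class of the members leaned lower. Of 25178 protein-coding loci, 1790 lay lower and 924 higher without overlap. At a limma unadjusted p under 0.05, 933 were lower and 406 higher, and by the authors' p-values 875 and 450.

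Across the family, 24 members lay below 0 and 9 above, and the median difference was -0.08, where the median of all loci was -0.02 and 56.6% of loci lay below 0. The authors' deposited table gives 29 members the same sign as here and 4 the opposite one: XTH5 (-0.03 there, 0.09 here), XTH21 (0.14 and -0.06), XTH30 (0.0026 and -0.08) and XTH32 (-0.0029 and 0.0054). Differences ran from -0.89 at XTH4 to 0.27 at XTH1, and standard errors from 0.08 to 0.36 with a median of 0.15. The group medians were -0.09 in group I, -0.08 in group II and -0.0079 in group III. All 5 members without overlap were among the 16 that lay above the array median on all 6 arrays. The share without overlap was not counted over all loci at that level, so this is not read as a trait of these genes. The 5 members below the lower quartile on all arrays, XTH1, XTH2, XTH3, XTH20 and XTH21, had differences from -0.19 to 0.27. No background level was given for these arrays, so a difference might not be seen at such values.

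**Figure D3:**
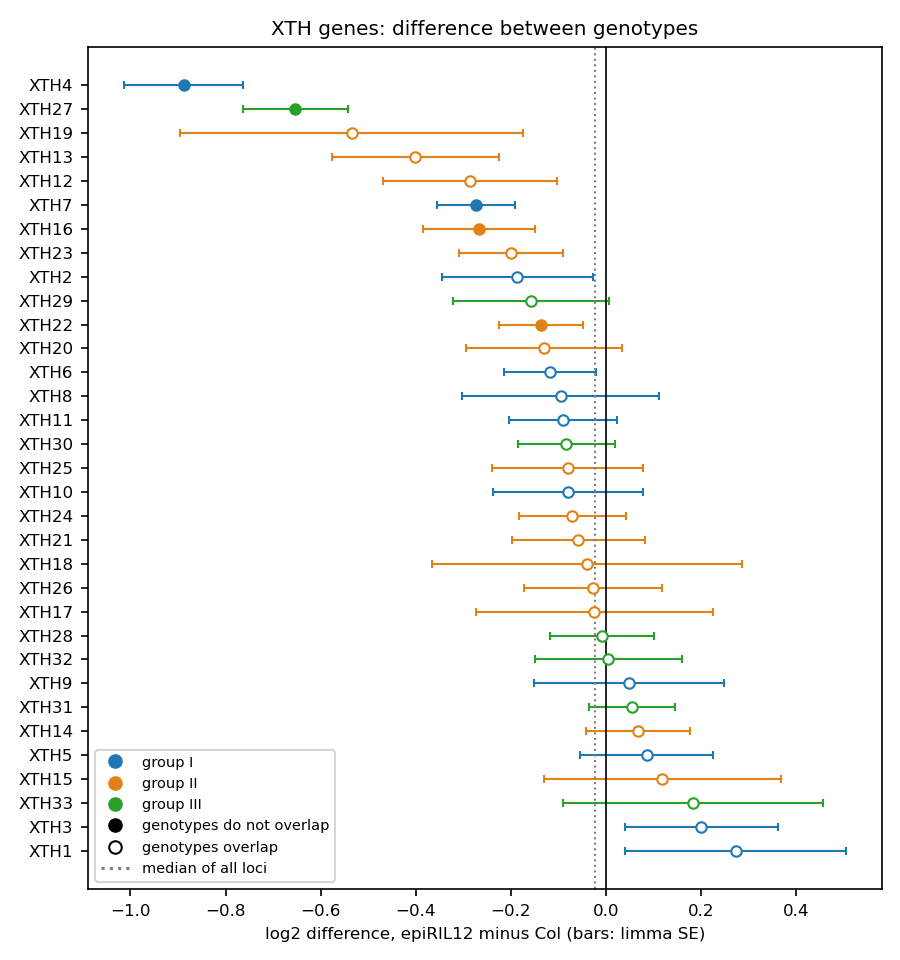
Log2 difference, epiRIL12 minus Col, of each XTH gene with limma's standard error as bars, coloured by sequence group. Filled circles mark the 5 genes whose 3 epiRIL12 values all lie outside the Col range, all of them left of 0, and the dotted line is the median of all loci at -0.02.

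In group I, 9 of 11 members overlapped between the genotypes, where 26084 of all 29670 loci did. XTH5 (AT5G13870), also called EXGT-A4, read 7.02, 7.36 and 6.99 in Col and 7.12, 7.39 and 7.12 in epiRIL12 (difference 0.09, SE 0.14). XTH9, which like XTH4 acts in wood formation, read 9.72, 10.04 and 9.52 in Col and 10.12, 9.49 and 9.82 in epiRIL12 (difference 0.05, SE 0.20). At neither of these genes did the genotypes part as at XTH4. XTH6 differed by -0.12 (SE 0.10), XTH8 by -0.10 (SE 0.21) and XTH11 by -0.09 (SE 0.11). On both arrays numbered 3 XTH8 was low, at 7.51 in Col and 7.46 in epiRIL12, while its other 4 values lay from 7.94 to 8.08. XTH3, known also to link cellulose chains to one another in the test tube, differed by 0.20 (SE 0.16), and XTH1 by 0.27 (SE 0.23), the highest of the family.

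Group II, with 15 members, holds the XTH genes best known from roots, where XTH14 and XTH26 act in root hairs, XTH18 in growth of the main root and XTH17 to XTH20 are expressed. None of the 15 was called and 0 had an unadjusted p under 0.05, where the shares over all loci were 0.0843% and 0.89% called and 3.72% and 3.32% unadjusted, lower and higher; a list of 15 at those shares can hold none. The lowest adjusted p was 0.740, at XTH13. XTH19 (AT4G30290) had the largest difference of the group and the widest spread of the family: it read 7.45, 7.28 and 8.49 in Col and 7.00, 7.71 and 6.91 in epiRIL12. Col replicate 3 stood above the other 5 arrays, and the difference of -0.53 had an SE of 0.36. XTH18, its neighbour on the chromosome, read 6.21, 5.39 and 5.23 in Col and 5.96, 5.69 and 5.05 in epiRIL12 (difference -0.04, SE 0.33). Here the first array of each genotype was the highest. XTH17 differed by -0.02 (SE 0.25), XTH14 by 0.07 (SE 0.11), XTH26 by -0.03 (SE 0.15) and XTH20 by -0.13 (SE 0.16). The shade-responsive XTH15 read 6.07, 6.98 and 6.17 in Col and 6.73, 6.42 and 6.43 in epiRIL12 (difference 0.12, SE 0.25), so that the Col arrays spanned the epiRIL12 ones. XTH15 is the 1 member that overlaps another gene in the annotation, AT4G14120. The double-stranded target keeps no strand, so signal from probes in the shared stretch, if any, cannot be told apart. The length of the overlap and the probe positions were not examined. XTH24, found in meristems and in senescing leaves, differed by -0.07 (SE 0.11) and XTH23 by -0.20 (SE 0.11).

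Differences of neighbouring family members are listed here, and no test compared neighbours with one another. Of the 33, 11 lie next to another member in locus order, in 4 blocks. In the block of XTH12, XTH13, XTH25 and XTH22 all 4 lay below 0, at -0.29, -0.40, -0.08 and -0.14, and none was called. In the block of XTH24, XTH18 and XTH19 the differences were -0.07 (SE 0.11), -0.04 (SE 0.33) and -0.53 (SE 0.36). The pair of XTH23 and XTH14 stood at -0.20 (SE 0.11) and 0.07 (SE 0.11). XTH1 and XTH2 stood at 0.27 (SE 0.23) and -0.19 (SE 0.16), both below the lower quartile on all arrays. Tandem copies can be similar in sequence; probe sequences were not used here, and signal shared between copies was not set apart.

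In group III, 6 of 7 members overlapped between the genotypes, again beside 26084 of all 29670 loci. XTH31 (AT3G44990), the member best known for hydrolase activity, read 11.16, 11.28 and 11.34 in Col and 11.28, 11.31 and 11.35 in epiRIL12 (difference 0.06, SE 0.09). This difference was below the SD of 0.09 in Col and above that of 0.04 in epiRIL12. XTH32, the other member of its subgroup, differed by 0.0054 (SE 0.15). XTH33 (AT1G10550), which carries a predicted membrane anchor, read 6.20, 5.56 and 5.51 in Col and 6.44, 5.70 and 5.67 in epiRIL12 (difference 0.18, SE 0.27). As at XTH18, the first array of each genotype was the highest, and without epiRIL12 replicate 1 the difference turned to -0.07. XTH28, known from the growth of stamen filaments, differed by -0.0079 (SE 0.11), XTH29 by -0.16 (SE 0.16) and XTH30 by -0.08 (SE 0.10).

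Both members with the largest differences lie on chromosome 2, which holds 5 XTH genes. The other 3, XTH10, XTH21 and XTH32, differed by -0.08 (SE 0.16), -0.06 (SE 0.14) and 0.0054 (SE 0.15). XTH4 sits among pseudogene loci. Of the 100 loci nearest to it in locus order, 50 on each side, 74 were annotated as pseudogenes, the class in which the annotation places transposon loci. Of these 100, 13 rose and 0 fell (limma adjusted p under 0.05), where 0.89% of all loci rose and 0.0843% fell. Of protein-coding loci 0.107% rose, so the share differs by class. It was not counted among pseudogene loci, and the share over all loci is no measure for a window rich in them. Of the 13, 12 were of the pseudogene class. Their rises ran from 2.43 to 7.79 on the log2 scale. XTH4 went the other way. The family was selected on this difference, so the rank of XTH4 among these loci is not read. The lowest difference among the 100 was -0.71. The 13 loci that rose had Col means from 3.77 to 6.11, against 11.54 at XTH4, and a fall might not be seen at low values. This window and the one around XTH27 were chosen after the values were seen.

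Next to XTH4 itself nothing was called. The flanking loci AT2G06845 and AT2G06860 stood at 0.42 (SE 0.15) and 0.19 (SE 0.22), and the next ones out, AT2G06840 and AT2G06870, at -0.06 (SE 0.10) and 0.04 (SE 0.14). All 4 had Col means between 4.12 and 5.26, where the lower quartiles of the Col arrays were 4.78 to 4.89. Of these 4, AT2G06845 had all epiRIL12 arrays above all Col arrays (limma unadjusted p = 0.0276). So did AT2G06830, 3 loci away, at 0.43 (SE 0.13, limma unadjusted p = 0.0141). By that rule 5.19% of all loci lay higher. The nearest called loci were AT2G06800, 6 loci away, which rose by 4.39 (SE 0.15), and AT2G06920, 16 loci away on the other side, which rose by 2.76 (SE 0.16).

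XTH27 had a called locus directly beside it. The pseudogene AT2G01840 read 4.84, 4.92 and 4.85 in Col and 6.19, 6.26 and 5.91 in epiRIL12, a rise of 1.25 (SE 0.12, limma adjusted p = 0.00379). On the other side EMB975 (AT2G01860) stood at -0.02 (SE 0.19). Further out there AT2G01870, AT2G01880, AT2G01890 and AT2G01900 stood at -0.17 (SE 0.13), -0.24 (SE 0.11), -0.51 (SE 0.20) and -0.06 (SE 0.10). None of them was called, and of them only AT2G01880 showed no overlap. Beyond the pseudogene, AT2G01830, AT2G01820, AT2G01818 and AT2G01810 stood at -0.0031 (SE 0.10), 0.03 (SE 0.09), 0.03 (SE 0.18) and -0.04 (SE 0.16). Around XTH27, 2 of the 100 nearest loci rose and 10 were of the pseudogene class. XTH10 had 3 rises among its 100 nearest loci, of which 49 were of that class, and its own arrays overlapped (4.88, 5.12 and 5.34 in Col; 5.27, 4.95 and 4.89 in epiRIL12). Over the family, 26 members had no rise among their 100 nearest loci and 7 had 1 or more. Of all loci 0.89% rose, but of protein-coding loci 0.107%, so the share differs by class. The windows of XTH15, XTH21, XTH26 and XTH29 held 3, 6, 2 and 1 loci of the pseudogene class. No share was counted for windows of such make-up, so these numbers of rises are not read. Of the 7 members with a rise nearby, XTH4 and XTH27 showed a gap between the genotypes. The other 5 overlapped: XTH10 with 3 rises nearby, XTH15 with 2, as many as XTH27, and XTH21, XTH26 and XTH29 with 1 each. XTH7, XTH16 and XTH22 showed a gap too, without a rise among their 100 nearest loci. By the same rule 6.89% of all loci lay lower and 5.19% higher without overlap. Whether the differences at XTH4 and XTH27 follow from changes nearby was not tested.

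**Figure D4:**
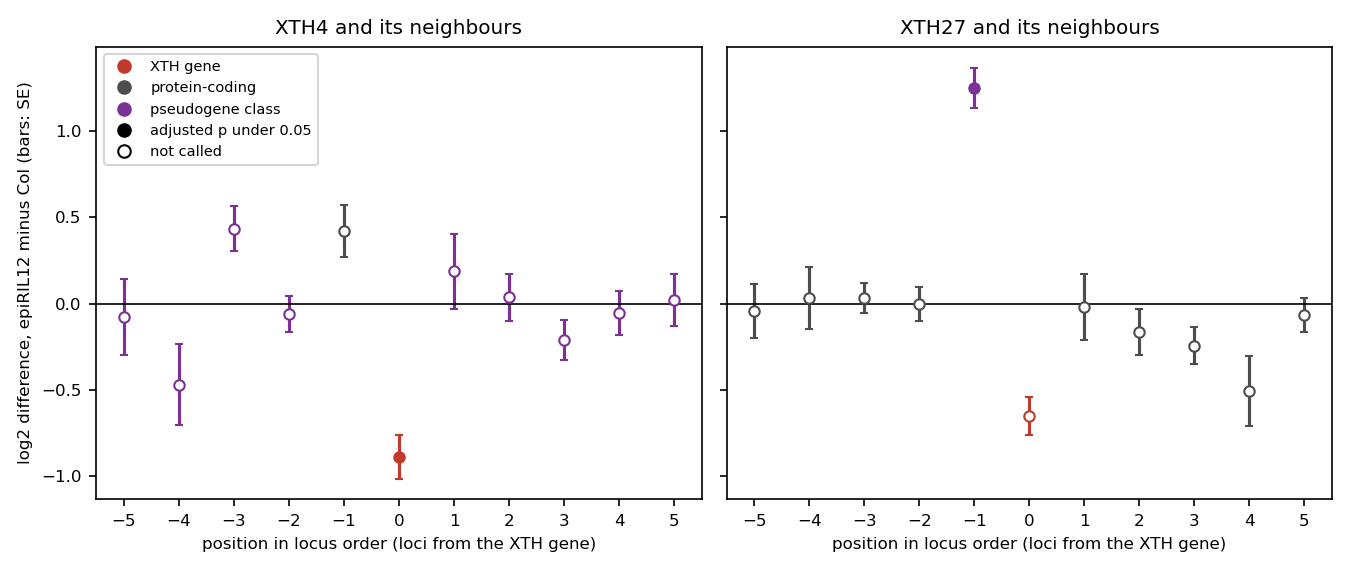
Log2 difference, epiRIL12 minus Col, with SE bars, at XTH4 (left) and XTH27 (right) and at 5 loci on each side in locus order; purple marks the pseudogene class and filled circles an adjusted p under 0.05. XTH4 at -0.89 stands alone among uncalled neighbours, whereas XTH27 at -0.65 lies next to a pseudogene at 1.25.

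Genes that make or trim xyloglucan were read against all loci, of which 0.0843% fell and 0.89% rose, so that lists of this size hold few or no calls at that share. In synthesis, CSLC proteins build the glucan backbone, XXT enzymes add xylose, and MUR3 adds galactose. Of 15 such genes 0 were called (limma) and 0 had an unadjusted p under 0.05; the median difference was -0.0025. CSLC4 differed by 0.04 (SE 0.09), XXT1 by 0.01 (SE 0.10), XXT2 by 0.14 (SE 0.08), XXT5 by -0.09 (SE 0.08) and MUR3 by 0.07 (SE 0.15). Of 3 trimming genes 0 were called and 0 had an unadjusted p under 0.05. The xylosidase gene XYL1, which removes xylose from released fragments, differed by -0.0087 (SE 0.08).

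The other lists cover wall loosening, cellulose and growth signals. Expansins loosen the wall without cutting it, and 24 of them had a median difference of 0.02; EXPA1 differed by -0.05 (SE 0.10) and EXPA8 by 0.05 (SE 0.17). For 9 cellulose synthase genes the median was -0.02, and CESA1, a subunit of the primary wall complex, differed by -0.02 (SE 0.08). Among 5 touch genes the calmodulin-like TCH2 and TCH3 differed by -0.08 (SE 0.12) and 0.13 (SE 0.23). Of the hormone and shade genes 15 of 17 were measured, with a median of -0.05. The brassinosteroid receptor gene BRI1 differed by 0.02 (SE 0.09) and the growth regulator PIF4 by -0.08 (SE 0.13). Over the 6 lists 0 of 71 genes were called by limma in any setting, and 0 after adjustment of the authors' p-values. At an unadjusted p under 0.05 there were 3 lower and 1 higher, where 3.72% of all loci were lower and 3.32% higher, so neither count sets these lists apart. The 4 genes are named after their values were seen: EXPA9 (-0.29, SE 0.12), EXPA18 (-0.33, SE 0.10), CESA9 (-0.28, SE 0.09) and the brassinosteroid synthesis gene DWF4 (0.31, SE 0.10). The medians of these lists lay between -0.05 and 0.02, and that of the XTH family at -0.08.

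**Figure D5:**
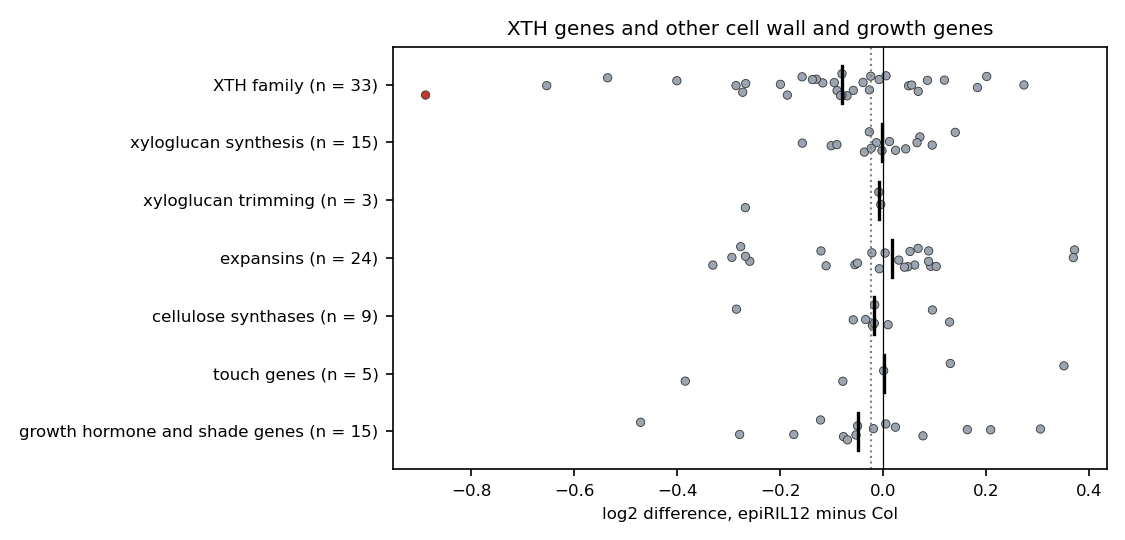
Log2 difference, epiRIL12 minus Col, of each gene (points) in the XTH family and 6 other lists, with list medians as black bars and the median of all loci as a dotted line. XTH4, in red at -0.89, is the only called gene shown; heights within a row are arbitrary.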

How the data were processed

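Per the labels' protocols, ribosomal RNA was removed from total RNA, and the remainder was copied with random primers, amplified and hybridised as biotin-labelled double-stranded cDNA on Affymetrix arrays. The authors deposited log2 values, 1 for each of 29670 loci on each array, and, in a second table, each locus's log2 difference with its p-value. The labels and headers do not say how arrays were normalized and summarized or on which build. Precision is limited by the number of arrays. Value rows carry no names, so the tables were joined by position (Pearson's r of their differences over loci 0.967 in place, 0.166 shifted by 1), which also set the sign as epiRIL12 minus Col. All 33 members matched the RefSeq table of TAIR10.1, used for names, classes, overlaps and neighbours; no coordinates or sequences are given.

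The main fit used limma 3.58.1 under R 4.3.3, with lmFit, a plain eBayes and genotype as the single factor, on every locus. Tests were two-sided and Benjamini-Hochberg adjustment ran over 29670 loci. Errors of means are SDs and those of differences limma's moderated SEs. The script was tested on simulated data. Members, lists and markers were chosen with earlier results of these data known. Values by array were given for called members, XTH4, the 5 largest differences without overlap, XTH22, XTH31 and XTH33; further members were added as examples after their values were seen. Other lists were named by called members and by fixed examples. Alternatives were a replicate block, quantile normalization, median centring, a low-signal filter, a trended robust eBayes, the authors' table and leaving out each array; leaving out both arrays numbered 3 was added after the values were seen. Plots used matplotlib 3.10.9 in Python 3.11.15.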

Additional observations from a re-analysis of the deposited data

How the results depend on the processing

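XTH4 was below 0 in all 13 alternatives (-0.98 to -0.80) and was called in 6 of them (adjusted p 0.00455 to 0.240). The number of called members, 1 as reported, was 2 (XTH4 and XTH27) with the lowest 25% of loci left out, where 26 members remained, and 2 with a trended robust eBayes; it was 0 with the authors' deposited p-values, 0 without both arrays numbered 3, and 0 to 1 with any single array left out. XTH27 was below 0 throughout (-0.75 to -0.61; adjusted p 0.0100 to 0.521). The list genes gave 0 calls in every setting. The family median stayed between -0.11 and -0.04, where it was -0.08 as reported. XTH33 ran from -0.069 (without epiRIL12 replicate 1) to 0.41 (without Col replicate 1) with 1 array left out; it was not called in any setting. Over all loci, falls numbered 25 as reported, 13 under the replicate block, 15 in the authors' table, 10 without both arrays numbered 3 and 10 to 19 without any single array, and rises 264, 197, 123, 141 and 197 to 220. The cause of these shifts was not tested, though fewer arrays leave less information on the spread.

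The replicate block kept the XTH4 call (adjusted p = 0.0495; 1 member called) and gave 0.221 for XTH27. The labels say nothing of what a shared number means, and deviations of same-numbered arrays correlated at -0.04, -0.07 and 0.13 over loci. Col array 1 correlated at 0.12 with epiRIL12 array 2, and Col array 2 at 0.11 with epiRIL12 array 1. The other pairs of unlike number lay from -0.09 to -0.04. Not every array thus correlated best with its own number, and the block by number may not follow any true pairing.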
